A study of Bos taurus with 47 samples.

Results

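Bovine 8-cell embryos made by somatic cell nuclear transfer (scNT) were compared with 8-cell embryos made by in vitro fertilization (IVF), by mRNA sequencing of 4 scNT and 4 IVF libraries out of 47 in the series. Libraries that carry the same replicate number in their titles were compared with each other as 4 pairs. A gene entered the test where its normalized count was 10 or more in at least 4 of these 8 libraries, which 13000 of the 20526 listed genes met. The series also profiled oocytes, fibroblasts, 2-cell embryos, morulae, blastocysts and cells grown from blastocysts, in 12 groups. Each 8-cell library was made from a pool of 20 embryos taken on day 3. The scNT embryos carried the nucleus of a cultured skin fibroblast, starved of serum, from the ear of a Brahma × Spanish cross bull, fused electrically with an enucleated, in vitro-matured oocyte. The IVF embryos came from in vitro-matured oocytes and the semen of a Holstein bull. Both kinds were cultured over cumulus cells. The nuclear donor and the sire thus differ in breed as well as in the method. The scNT embryos all carry the nuclear genome of a male donor, and the IVF embryos those of oocytes and a sire. Genotype, and possibly the mix of sexes, therefore also go with the method, and these cannot be told apart. Pooled embryos also mean that fewer embryos carrying a transcript and less of it per embryo cannot be told apart. Nothing in the labels ties a pool to a separate collection of oocytes or a separate day. The p-values of paired fits below reflect how far the differences within pairs vary, and those of unpaired fits how far these pools differ. Either spread may be technical.

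In cattle, as in other mammals, the first divisions run on RNA stored in the oocyte, and the embryo's own genome is switched on in force around the 8-cell stage, while stored RNA is cleared. After nuclear transfer that switch has to be made by a nucleus that came from a differentiated cell, in which many genes of the early embryo are silent and the donor's own genes are active. The comparison asks how far scNT embryos are along this handover when they are collected on the same day as IVF embryos.

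The libraries held between 6413054 and 15274177 reads, recovered from the normalized values. The scNT library was the deeper one in pairs 1, 2 and 3 and the shallower one in pair 4, so depth moves with the result described next, and values after thinning every library to the smallest total are given beside it. Replicate number took 50.6% of the variance of log2 values over the 8 libraries with 42.9% of the degrees of freedom, and scNT against IVF took 27.2% with 14.3%. Each scNT library's deviation from its group mean correlated best with that of the IVF library of the same number, with r between 0.23 and 0.56 across genes against −0.50 to 0.21 for other numbers. The match was weakest in pair 4, at 0.23. There scNT replicate 4 also correlated at 0.20 with IVF replicate 2, and IVF replicate 4 at 0.21 with scNT replicate 1. The comparison was defined within same-numbered libraries, and they were kept as pairs after this check. The check used the same 8 libraries, so it is no independent evidence for the pairing, and the labels do not give it. The genes are listed by Ensembl identifier without names, so none of 22 lists of named genes, including markers of fibroblasts, cumulus cells and sperm, could be matched. The gene groups below are defined by the libraries of other stages instead.

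Genes that come on between the 2-cell stage and the morula in IVF embryos were lower in scNT than in IVF 8-cell pools in 3 of 4 pairs, and genes whose RNA is lost over the same interval were higher in the same 3 pairs. The rising genes were the 2349 whose mean log2(normalized count + 1) was at least 2 higher in IVF morulae than in IVF 2-cell embryos, and the falling genes the 377 that were at least 2 lower. No 8-cell library took part in that choice. The median difference between scNT and IVF over the rising genes, on the log2 scale, was −1.55 in pair 1, −1.03 in pair 2, −1.29 in pair 3 and 0.12 in pair 4. In pairs 1 to 3 between 78.9% and 85.5% of them were lower in the scNT library, and in pair 4 only 38.6% were. Over the falling genes the median difference was 0.61, 1.16 and 0.73 in pairs 1 to 3 and −0.04 in pair 4. All tested genes had medians of 0.14, 0.21, 0.20 and −0.01, and 4534 genes that were stored in the oocyte and steady (under a log2 change of 1 over the interval) had 0.17, 0.17, 0.23 and 0.01. Pair 4 therefore stood apart from the others in both groups of changing genes. With every library thinned to the 6413054 reads of the smallest the rising genes gave −1.61, −1.09, −1.30 and 0.03.

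On a scale that puts the mean of the rising genes at 0 in IVF 2-cell embryos and at 100 in IVF morulae, the scNT 8-cell libraries lay at −3.0, 37.7, 11.6 and 26.0, against 45.4, 69.4, 51.4 and 24.5 for the IVF 8-cell libraries. The scNT library of pair 1 was at the level of 2-cell embryos, and the groups overlapped because IVF replicate 4 lay below scNT replicates 2 and 4. The scNT libraries averaged 18.1 ± 17.6 and the IVF libraries 47.7 ± 18.5 (SD, n = 4 each). The same scale for the falling genes placed the scNT libraries at −6.4, 17.2, 4.2 and 12.3, against 18.1, 67.2, 33.7 and 13.3 for the IVF libraries, so that in pairs 1 to 3 the scNT library was behind its IVF partner on both scales, and in pair 4 the libraries were close on each. The third IVF 2-cell library stood apart from its group, at 37.8 against −22.4 to −1.8 for the other 3. With the genes and the scale set without it, the scNT libraries lay at 10.0, 47.7, 21.3 and 39.2, and the IVF libraries at 53, 75.7, 57.8 and 37.4.

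**Figure D1:**
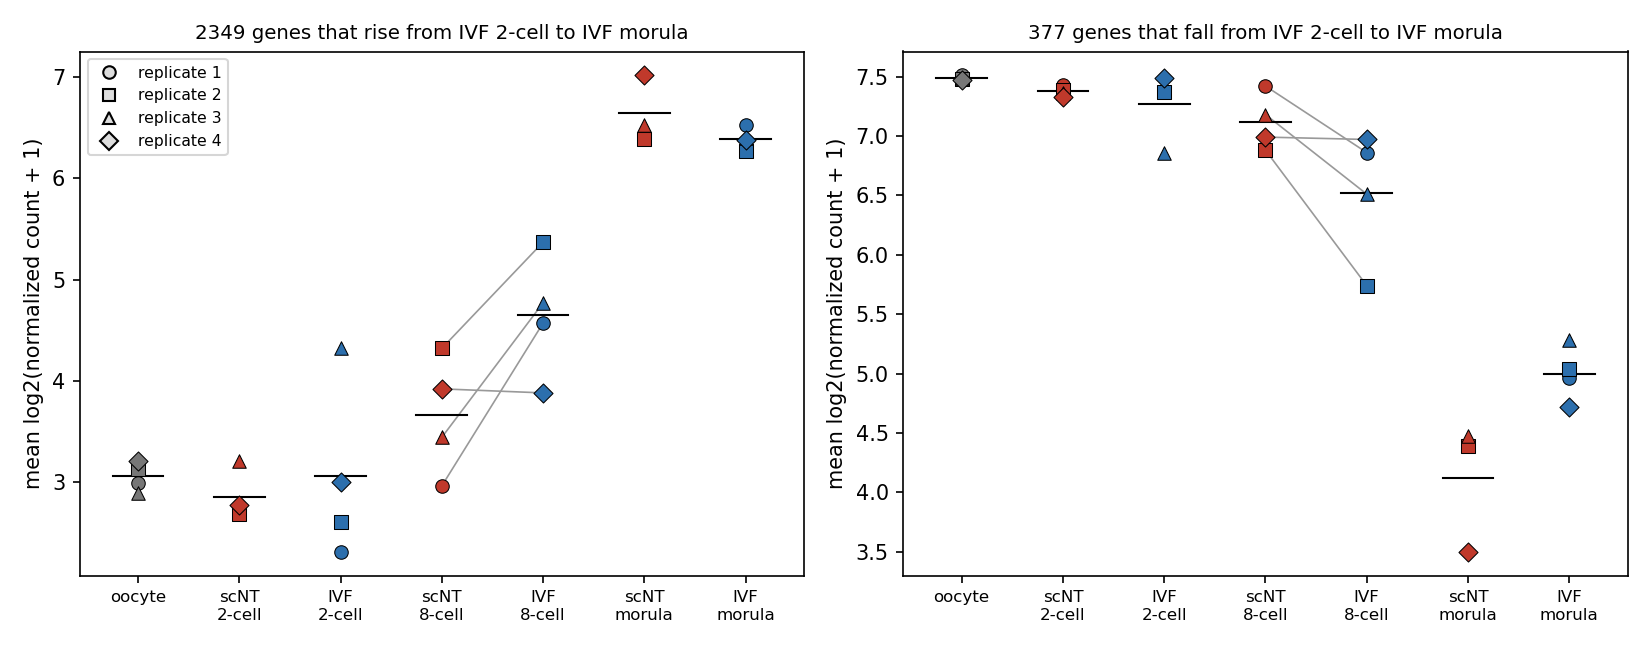
Mean log2(normalized count + 1) of the 2349 rising genes (left) and the 377 falling genes (right) in each library, by group, with red for scNT, blue for IVF, grey for oocytes, marker shape for replicate number, black bars for group means and grey lines joining same-numbered 8-cell libraries. The lines of pairs 1 to 3 slope upward on the left and downward on the right, and the line of pair 4 is nearly level in both panels.

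Genes with no read in any oocyte library were counted in each 8-cell pool, whether their RNA was made by the embryo or brought in by the donor cell. Of 1889 such genes, 30, 43, 28 and 25 had a normalized count of 10 or more in the scNT libraries, against 62, 98, 70 and 43 in the IVF libraries. The scNT libraries had fewer in all 4 pairs, pair 4 included, and the lowest IVF library equalled the highest scNT library. The means were 31.5 ± 7.94 in scNT and 68.2 ± 22.8 in IVF embryos (SD, n = 4 each), with p = 0.125 by an exact two-sided sign-flip test over the pairs, the smallest p that 4 pairs can give, and p = 0.0571 by an exact permutation test without pairs. Thinned to equal depth, the counts were 32, 44, 31 and 22 in scNT and 64, 98, 67 and 42 in IVF libraries. Fewer scNT counts in 4 of 4 pairs were not particular to these genes. Over all 20526 genes, those at 10 or more were also fewer in scNT in 4 of 4 pairs. Their means were 12660 ± 311 in scNT and 13000 ± 111 in IVF embryos (SD, n = 4 each). The sign-flip test gave p = 0.125 and the permutation test p = 0.114.

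Gene by gene, more genes were called lower than higher in the scNT embryos, and the lower ones differed by more. Within pairs, 155 of 13000 genes were lower in scNT embryos (1.19% of genes tested) and 13 were higher (0.100%), 168 in all (1.29%), at an adjusted p under 0.05 by limma with Benjamini-Hochberg adjustment over all genes tested. The 155 lower genes had a median log2 difference of −2.42, from −5.56 to −1.12, so that each of them was at least 2-fold lower, 104 at least 4-fold and 38 at least 8-fold. The 13 higher genes had a median of 1.05, from 0.93 to 3.70, and 7 of them were at least 2-fold higher. Over all genes tested the median difference was 0.13, with quartiles of −0.32 and 0.40. Each of the 155 was lower in 4 of 4 pairs, as were 1247 genes in all (9.59%), and 2178 genes were higher in 4 of 4 pairs (16.8%). In 52 of the 155 every scNT library lay below every IVF library, against 207 of all genes tested (1.59%). In 11 of the 13 every scNT library lay above every IVF library, against 408 of all genes tested (3.14%). For the 155 lower genes the gene means had a median of 55.4 normalized counts in scNT embryos, against 313 in IVF embryos. Of these, 24 had a mean under 10 in scNT embryos and none in IVF embryos. Over all genes tested, 251 had a mean under 10 in scNT embryos and 163 in IVF embryos. A gene called lower can pass the filter through its IVF libraries alone, so the lack of low IVF means follows largely from the choice.

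**Figure D2:**
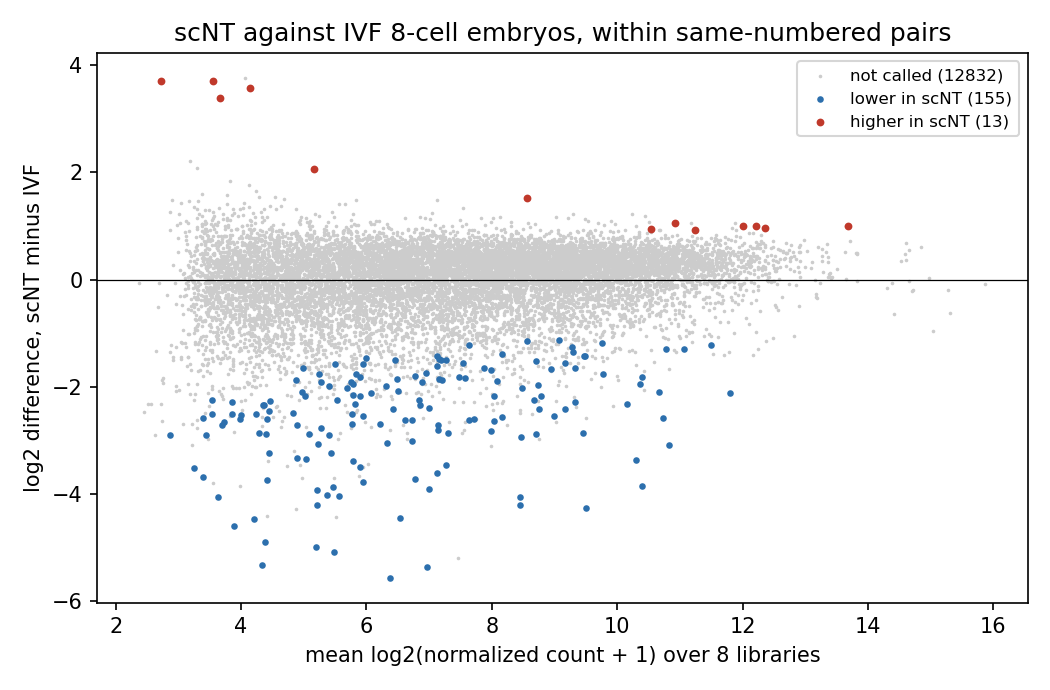
Log2 difference between scNT and IVF 8-cell embryos, fitted within same-numbered pairs, against the mean log2(normalized count + 1) over the 8 libraries, 1 point per gene tested. The 155 genes called lower in scNT (blue) reach −5.56, and 8 of the 13 called higher (red) lie at high counts with differences from 0.93 to 1.53.

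These calls rest on the pairing. Without the replicate block limma called 0 genes (0% of those tested), with 1642 at an unadjusted p under 0.05; edgeR without the block also called 0, and DESeq2 called 378, of which 357 were lower in scNT. With the block, edgeR called 69 lower and 4 higher, and DESeq2 918 lower and 144 higher. Leaving out pair 1, 2 or 3 gave 105, 20 and 49 calls, which held 81, 17 and 46 of the 155. Leaving out pair 4 gave 4370, of which 1923 were lower (14.8% of genes tested) and 2447 higher (18.8%), and 154 of the 155 and all 13 of the 13 were among them. The higher calls of that fit were small, with a median of 0.76 and 438 of at least 2-fold, whereas 1416 of the lower ones were at least 2-fold, with a median of −1.41. Their balance depended on the scaling: 56.0% of calls were higher in scNT with the deposited size factors, 31.5% with equal library totals (2768 calls) and 23.7% with TMM scaling (3049 calls). Among the 4370, the rising genes gave 812 lower and 4 higher, and the falling genes 189 higher and 3 lower.

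The pair-by-pair differences show the same division. Across the 13000 genes the differences of pairs 1, 2 and 3 correlated with each other at Pearson's r of 0.60, 0.71 and 0.69, and those of pair 4 correlated with them at −0.06, 0.02 and 0.09. These r are across genes, which are not independent replicates, and each pair has its own libraries. The 155 lower genes, chosen over all 4 pairs, had median differences of −2.44, −2.53, −2.58 and −1.61, of which the last is the smallest. Their shared direction is fixed by the choice.

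Among lower genes with a mean of at least 50 over the 8 libraries, the largest differences belonged to a pair of genes that are almost silent in oocytes. ENSBTAG00000002273 had 0.6, 320.5, 16.0 and 1.5 normalized counts in the scNT libraries, against 882.9, 2004.4, 1403.6 and 42.7 in the IVF libraries. It was near 0 in scNT replicates 1 and 4 and lower than its IVF partner in 4 of 4 pairs, and the groups overlapped, since scNT replicate 2 lay above IVF replicate 4. The fitted log2 difference was −5.56 (SE 0.92, limma adjusted p = 0.0406), which depends on the pseudocount because of the low scNT values and was −4.72 with a pseudocount of 5. Elsewhere the gene averaged 0 in fibroblasts, 0.625 in oocytes and 878 ± 484 in scNT morulae (SD, n = 3), against 765 ± 165 in IVF morulae (SD, n = 4). Its call was lost in 11 of 18 other fits, among them those without pair 2 (adjusted p = 0.12), pair 3 (0.288) or pair 4 (0.0595), and its adjusted p ran from 7.6e-05 (DESeq2) to 0.388 (edgeR without the block).

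ENSBTAG00000013700 had 1.7, 400.8, 50.8 and 1.5 normalized counts in the scNT libraries, against 414.3, 3112.4, 1750.4 and 178.5 in the IVF libraries. Again scNT replicates 1 and 4 were near 0, the groups overlapped through scNT replicate 2, and the scNT library was lower in 4 of 4 pairs. The log2 difference was −5.37 (SE 0.62, limma adjusted p = 0.0127). This gene was brief in both kinds of embryo: it averaged 0.6 in oocytes and 61.2 ± 60.7 in scNT morulae (SD, n = 3), against 208 ± 217 in IVF morulae (SD, n = 4), and 1.48 in scNT blastocysts, against 6.98 in IVF blastocysts. Without pair 3 its limma adjusted p was 0.0941, and over 18 other fits it ran from 3.97e-08 to 0.375.

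**Figure D3:**
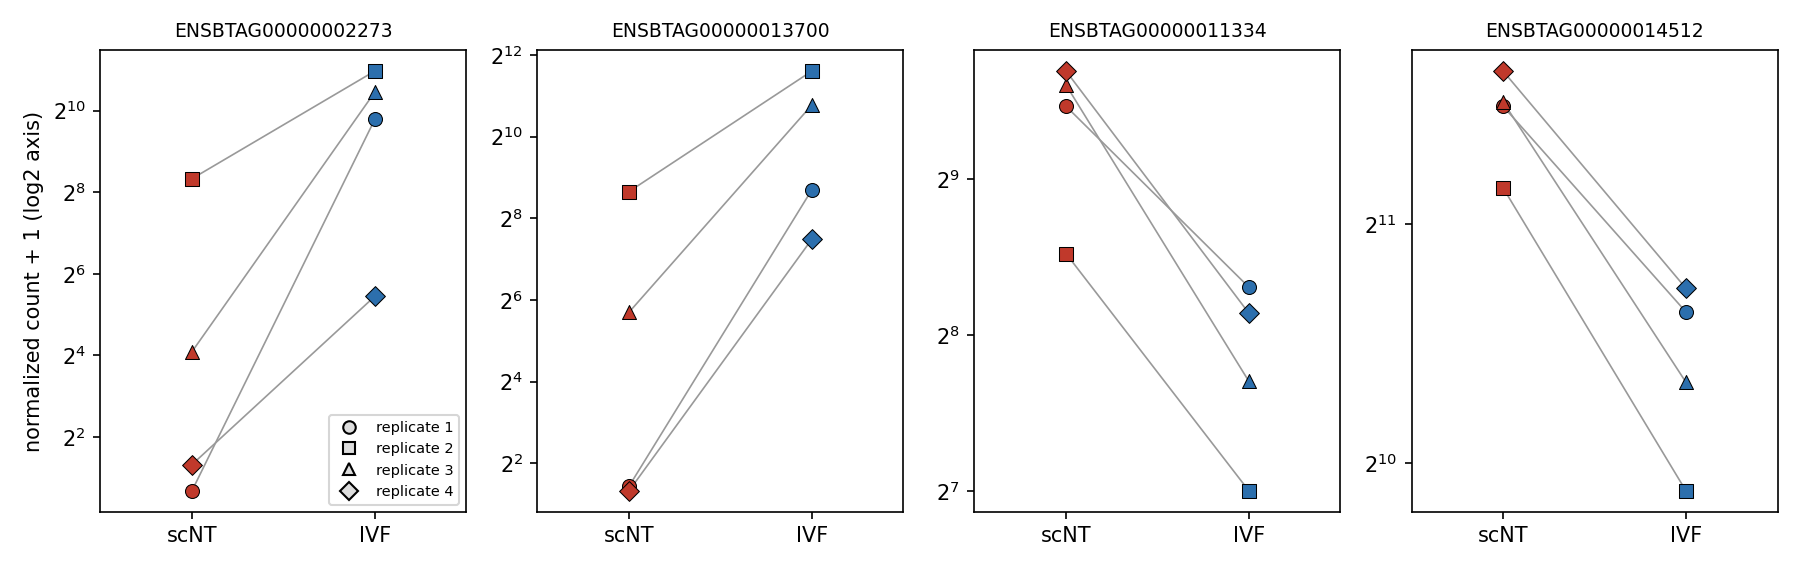
Normalized count + 1 on a log2 axis in the 4 scNT (red) and 4 IVF (blue) 8-cell libraries for 4 genes, with marker shape for replicate number and grey lines joining same-numbered libraries. All lines climb toward IVF for the lower genes ENSBTAG00000002273 and ENSBTAG00000013700 and descend toward IVF for the higher genes ENSBTAG00000011334 and ENSBTAG00000014512.

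Most of the 155 lower genes were genes that come on after the 2-cell stage in IVF embryos. Of them, 109 (70.3%) were rising genes, against 1335 of the 13000 tested (10.3%), and 1 was a falling gene. Oocytes held under 10 normalized counts on average for 76 of the 155 (49.0%), against 976 of all genes tested (7.51%). Of the rising genes tested, 109 were called lower (8.16%) and 1 higher. The remaining 46 of the 155 had medians of 45.6 normalized counts in oocytes, 82.9 in scNT 8-cell embryos, 265 in IVF 8-cell embryos and 91.2 in IVF morulae. The choice itself favours a high IVF 8-cell value, since these genes were called lower in scNT than in IVF 8-cell libraries and are not rising genes. Among the rising genes, 286 were also stored in oocytes at 100 or more; their median difference was −0.81, and 11 of the 109 called lower were among them. The test could only see a rising gene that reached the filter, and a gene that passes through the IVF libraries alone has to differ, so medians over every rising gene in the table are given as well: −0.88 over all 2349 and −1.05 over the 1335 tested. Without pair 4 the median over the tested rising genes was −1.47.

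Rising genes that are scarce in oocytes can be divided by their level in fibroblasts, the donor cell type. Of the rising genes with an oocyte mean under 10 and an IVF morula mean of 50 or more, 176 had a fibroblast mean under 10 and 106 had one of 100 or more. In the donor-silent genes the median of the gene means was 4.19 normalized counts in scNT 8-cell embryos, against 18.1 in IVF 8-cell embryos. In the donor-active genes it was 27.5 in scNT 8-cell embryos, against 52.4 in IVF 8-cell embryos. The median log2 difference over the 176 donor-silent genes was −2.83, −1.77, −2.31 and −0.25 in pairs 1 to 4. The median over the 106 donor-active genes was −1.85, −1.10, −2.31 and 0.13. Both groups were lower in pairs 1 to 3; the donor-silent median was the lower one in pairs 1, 2 and 4, and the medians were equal to 2 decimals in pair 3. Over all 4 pairs the medians were −1.76 and −1.19, and 80 of the 176 (45.5%) and 34 of the 106 (32.1%) were lower in 4 of 4 pairs. The filter was passed by 74 of the 176 donor-silent and 98 of the 106 donor-active genes. A gene as low as these can pass through the IVF libraries alone, and the median of the 74 was −2.87, with −1.66 in pair 4, so their 30 lower calls are not set against the 7 of the donor-active genes. The difference between the groups was not tested. With the genes chosen without fibroblast replicate 3, the medians over all 4 pairs were −1.59 for 200 donor-silent genes and −1.17 for 107 donor-active genes. In pair 4 they were then −0.08 and 0.11. By the morula stage the donor-silent genes had medians of 157 normalized counts in scNT morulae, against 124 in IVF morulae, and the donor-active genes 203 in scNT morulae, against 126 in IVF morulae. Another 155 such genes with fibroblast means between those limits had a median difference of −1.21.

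**Figure D4:**
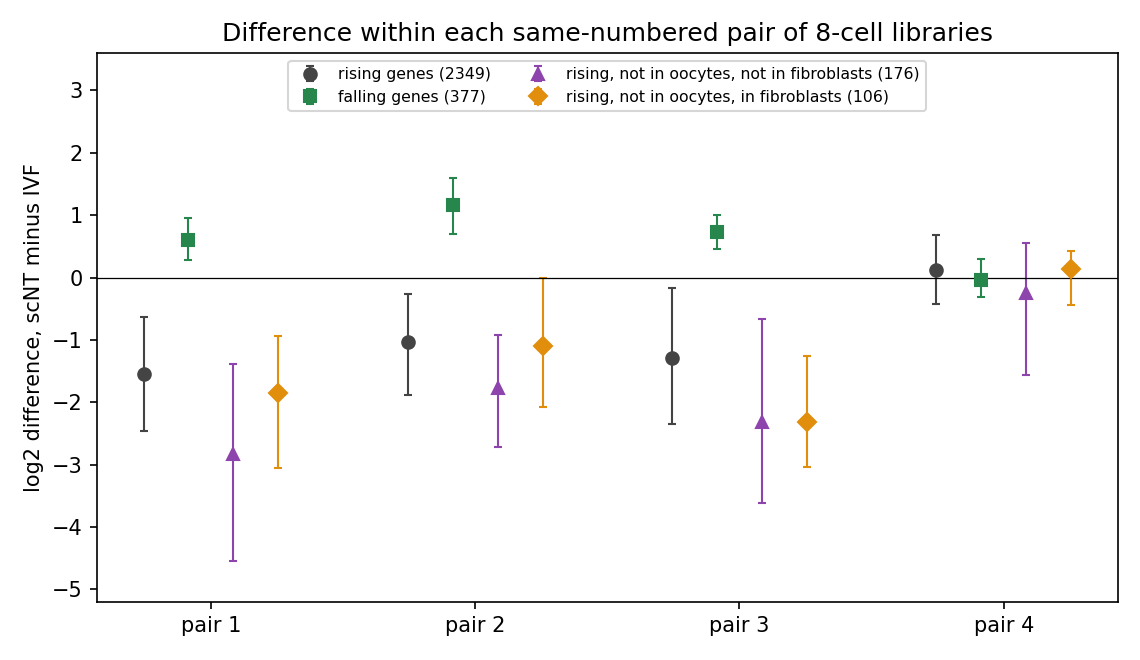
Log2 difference between the scNT and the IVF library within each of the 4 pairs, as the median (marker) and quartiles (bars) over 4 gene groups. The rising genes and both groups absent from oocytes lie below 0 in pairs 1 to 3, the falling genes lie above 0, and in pair 4 the 4 medians lie between −0.25 and 0.13.

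The 13 genes that were higher in scNT embryos were divided by their mean in IVF 8-cell embryos, where none lay between 18.4 and 233 normalized counts. For 8 of them the RNA was plentiful in oocytes, with means from 2800 to 27100 normalized counts. At the 2-cell stage the scNT range was already the higher one, with means of 2830 to 41400 in scNT and 1860 to 24600 in IVF embryos. The 8-cell means were 670 to 19000 in scNT and 233 to 9550 in IVF embryos. In morulae the order of the ranges was the other way, at 94.0 to 3840 in scNT and 229 to 6910 in IVF embryos. ENSBTAG00000011334 had 707.7, 367.2, 778.0 and 827.8 normalized counts in the scNT libraries, against 315.9, 127.2, 207.5 and 281.3 in the IVF libraries. Every scNT library lay above every IVF library, and the log2 difference was 1.53 (SE 0.20, limma adjusted p = 0.0127). The call was lost without pair 2 (adjusted p = 0.0679) or pair 3 (0.0869) and in 5 of 18 other fits in all, with adjusted p from 4.11e-08 to 0.371. Its oocyte mean was 3650, above every 8-cell library of either kind. ENSBTAG00000014512 had 2882.5, 2274.5, 2919.3 and 3191.4 normalized counts in the scNT libraries, against 1586.3, 944.1, 1293.7 and 1699.0 in the IVF libraries. The groups again did not overlap, and the log2 difference was 1.05 (SE 0.16, limma adjusted p = 0.0229), with an oocyte mean of 7050. This call was lost without pair 1 (adjusted p = 0.0753), pair 2 (0.109) or pair 3 (0.152) and in 6 of 18 other fits in all, with adjusted p from 1.12e-05 to 0.371. With TMM scaling, which moved the median of all genes from 0.13 to −0.03, 4 of the 13 were still called higher. Of the 13, 4 were falling genes (30.8%), against 328 of the 13000 tested (2.52%).

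The other 5 higher genes were abundant in fibroblasts, the donor cell type. They had means of 5150 to 21700 normalized counts in fibroblasts, 23.6 to 73.6 in scNT 8-cell embryos and 1.00 to 18.4 in IVF 8-cell embryos, and 4 of the 5 were under 10 in oocytes. Of the 8 genes plentiful in oocytes, 3 also had a fibroblast mean of 1000 or more. For 1 of these, ENSBTAG00000014512, that mean rests on fibroblast replicate 3, at 4639.5 against 547.6 to 641.5 in the other fibroblast libraries. The log2 differences of the 5 ran from 2.07 to 3.70, and in no IVF 8-cell library did any of them exceed 28.5. Their low IVF 8-cell counts follow from the way they were set apart. At the 2-cell stage they had means of 31.2 to 63.6 in scNT embryos, and the 4 that were under 10 in oocytes had 1.18 to 3.1 in IVF embryos. The remaining gene, at 27.8 in oocytes, went the other way, with 36 in scNT and 53.1 in IVF 2-cell embryos, where 1 library reached 195.1. To describe fibroblast RNA more widely, 24 genes were taken by a rule that uses no 8-cell value. It asked for a fibroblast mean of 1000 or more and no more than 20 in any oocyte or IVF 2-cell library. Of the 5 genes above, the 4 that were under 10 in oocytes meet this rule, so the sets overlap. The mean log2(normalized count + 1) of the 24 was 3.93, 3.33, 3.36 and 3.57 in the scNT 8-cell libraries, against 1.65, 1.99, 1.55 and 2.00 in the IVF 8-cell libraries. The limit of 20 fell on IVF and not on scNT 2-cell libraries, which can favour low IVF 8-cell values. All 4 scNT libraries lay above all 4 IVF libraries for these 24 genes. The 4 shared genes favour that order, since they were called higher on the same libraries. A wider set did not share the higher scNT level: 233 genes with a fibroblast mean of 100 or more, under 10 in oocytes and with no rise in IVF embryos (a log2 change under 1) had a median difference of −0.20, with −0.23, 0.04, −0.67 and 0.12 in pairs 1 to 4. Of the 142 tested, 1 was called higher and 0 lower, and without pair 4 the calls were 2 higher and 12 lower. In bulk RNA, transcripts carried over with the donor cell and transcripts made by the transferred nucleus cannot be told apart.

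The lower genes were also followed to the stages on either side. For the 155 the gene means had a median of 11.6 normalized counts in scNT 2-cell embryos, against 21.7 in IVF 2-cell embryos. The medians were 232 in scNT morulae, against 204 in IVF morulae, and 92.6 in scNT blastocysts, against 95.9 in IVF blastocysts. Of the 155, 83 could be tested at the 2-cell stage, where 0 were called and the median difference was −0.18, while over all genes 4 were higher (0.0328%) and 0 lower of 12195 by limma, with counts of 0 to 8 when 1 library was left out. In morulae 153 could be tested, with a median difference of 0.37 against 0.05 over all genes, and 20 were higher in scNT (13.1%) and 3 lower (1.96%). Over all genes 1002 of 13590 were higher in scNT morulae (7.37%) and 1540 lower (11.3%). The morula calls rested on single libraries, with 1448, 116, 739 and 672 calls without IVF morula replicates 1 to 4 against 2542 with all, and 2 with a replicate block. In blastocysts 118 could be tested, with a median of −0.15, and 4 were higher and 12 lower, against 2.53% higher and 3.42% lower over all genes. The 13 higher genes had a median difference of 0.90 at the 2-cell stage, where all 13 lay above 0 and 3 were called higher. Over the 11 tested in morulae the median was −0.66, with 4 called lower and 0 higher.

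The change of the scNT to IVF difference between stages was tested as an interaction, with same-numbered libraries as pairs at each stage. The pairing check above covered the 8-cell libraries only, so pairs of 2-cell embryos and morulae are assumed. The series has no scNT morula replicate 1, so IVF morula replicate 1 had no partner. Without the block the counts were 2643 against morulae and 0 against 2-cell embryos. From the 8-cell stage to the morula, 3062 of 14184 genes differed, 996 with a lower 8-cell difference (7.02%) and 2066 with a higher one (14.6%), by limma with Benjamini-Hochberg adjustment. Of the 155, 129 had the lower 8-cell difference and 0 the higher one, and of the 13, 10 had the higher one. The 8-cell libraries take part both in choosing these genes and in this test, so these counts are a description. Against the 2-cell stage 14 genes had a lower 8-cell difference (0.104% of 13474) and 0 a higher one, all 14 among the 155, with 1268 at an unadjusted p under 0.05. Both counts depended on single pairs: without replicates 1, 2, 3 and 4 in turn the morula count was 1201, 0, 7 and 4891, and the 2-cell count 0, 0, 0 and 384.

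**Figure D5:**
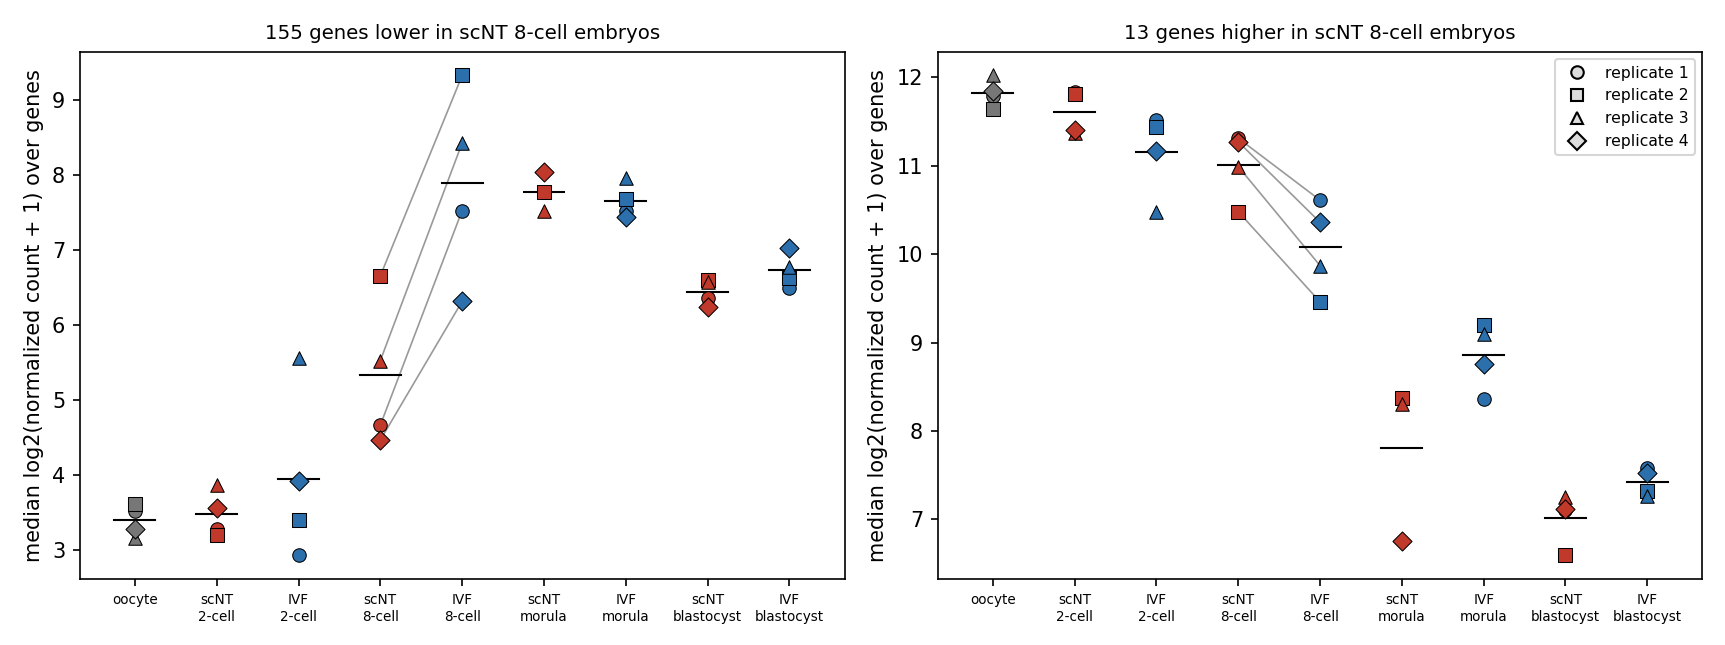
Median log2(normalized count + 1) in each library over the 155 genes called lower (left) and the 13 called higher (right) in scNT 8-cell embryos, from oocytes to blastocysts, with colours, markers, black bars for group means and grey lines as for the rising and falling genes. On the left the 8-cell groups separate within every pair and the morulae overlap, and on the right the scNT 8-cell library is the higher one in every pair.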

How the data were processed

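The authors deposited a signal per library for 20526 genes: a normalized count with 1 decimal. The submitters' processing notes name UMD3.1 as the genome build and the tools STAR, DESeq2, FastQC and MultiQC; the sources used here do not give their roles or versions, or the annotation. Per the labels' protocols, libraries were amplified in several rounds of PCR, and reads are not taken as independent molecules, so statements on depth cover counting error only. Values were not corrected for gene length. In each 8-cell library 99.85% to 99.99% of values above 0 were whole multiples of 1 step (tolerance 0.05), against 8.18% to 17.6% by chance, so reads could be recovered. No 2 replicates agreed within sampling noise (lowest chi-square per degree of freedom 28.1).

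Log2(normalized count + 1) was tested with limma 3.58.1 (trend, robust, two-sided) in R 4.3.3, with replicate number as a fixed block and only the groups compared. Calls were made where the Benjamini-Hochberg adjusted p was under 0.05. Fold changes on this scale understate low genes. For the pairing check, every same-number correlation of deviations was over 0.1 (0.23 to 0.56), and the labels do not state what a number marks. Morulae and 2-cell embryos were tested without a block. Simulated data of 13000 genes took the means, library totals and pair effects of the 8-cell libraries. Every gene was given the same dispersion, and each change was equal in every pair and placed in genes with a mean of 50 or more. On these data the paired fit recovered 98 of 100 genes changed by 2 on the log2 scale. It recovered 28 of 100 changed by 1, with 7 false calls. The real pairs did not share 1 difference, since pair 4 stood apart, so these rates do not carry over to the real comparison. Alternatives were edgeR 4.0.16 and DESeq2 1.42.0 on recovered reads, other scalings, pseudocounts and filters, no block, thinning and leaving out each pair. Figures were drawn in Python 3.11.15.

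Named genes were called genes with a mean of 50 or more and 1 sign in 4 of 4 pairs, ordered by size of difference, 2 per direction because 0 identifiers matched the reference gene table (ARS-UCD2.0) and gene symbols, asked for by the rule, could not be used. The comparison, the gene groups and the lists were chosen with earlier results of these data known.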

Additional observations from a re-analysis of the deposited data

Results flagged for a closer look

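In groups of 4 libraries, a value was marked where its gap to the nearest other library exceeded the 95% critical share of the group's range (Dixon's test), which chance gives in about 1 of 20 groups; 4 of the 28 groups looked at met it. Among scNT 8-cell libraries, replicate 1 held 15274177 reads against at most 9963462 in the others. For both lower genes scNT replicate 2 stood alone, with 320.5 normalized counts of ENSBTAG00000002273 against at most 16.0 in the other scNT libraries, and 400.8 of ENSBTAG00000013700 against at most 50.8. These marks hold for normalized counts only, since single genes were not judged on the log2 scale used for the main test. Among IVF 8-cell libraries, replicate 2 had 13170 genes at a normalized count of 10 or more, against 12940 to 12961 in the others, although it had the fewest reads (6413054).

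The scNT to IVF difference itself differed between stages, by limma's interaction term, for 3062 genes between the 8-cell stage and the morula and for 14 genes between the 8-cell and 2-cell stages.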

How the results depend on the processing

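The 168 genes called within pairs (155 lower, 13 higher in scNT) became 0 without the replicate block and 12 with the block as a random effect; without the block edgeR called 0 and DESeq2 378. With the block edgeR called 73, DESeq2 1062 and TMM scaling 78. Testing any gene above 0 in 4 libraries gave 286 of 18005, and only those at 50 or more 85 of 9824. Leaving out 1 pair gave 20 to 4370. Without pair 4, equal library totals gave 2768, and removing the block gave 0. Both pseudocounts, equal totals, thinning to equal reads and limma without the robust option gave 149 to 194. The cause of these shifts was not tested.

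Against morulae the interaction called 2643 genes without the replicate block and 0 to 4891 with 1 replicate left out, and against 2-cell embryos 0 without the block and 0 to 384 with 1 left out. The scNT and IVF morula count was 2 with the block and 116 to 2671 with 1 library left out; the 2-cell count was 0 to 8. Leaving out scNT 2-cell replicate 1 gave 0, and replicate 2, 3 or 4 gave 2; leaving out IVF 2-cell replicate 3 gave 8 and replicate 4 gave 1. The median over tested rising genes kept its sign in 19 of 19 alternatives (−1.47 to −0.81), as did that over falling genes (0.41 to 0.83). ENSBTAG00000002273, ENSBTAG00000013700, ENSBTAG00000011334 and ENSBTAG00000014512 kept their direction in 18 alternatives and lost the call in 11, 5, 5 and 6. Depth limits the counts for genes near the filter, where 341 genes reached 10 in exactly 4 libraries.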
